A study of Oryza sativa Japonica Group with 10 samples.

Results

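The 9 small heat shock protein genes that lie in 2 clusters of the rice genome, 5 on chromosome 1 and 4 on chromosome 3, were followed through RNA-seq libraries of rice shoots. They were chosen by locus ID from the 55689 gene IDs of the files, by place and family, with earlier results of these data known. The chromosome 1 cluster holds OsHsp16.6 (LOC_Os01g04340), OsHsp17.9B (LOC_Os01g04350), OsHsp16.9C (LOC_Os01g04360), OsHsp16.9A (LOC_Os01g04370) and OsHsp16.9B (LOC_Os01g04380). The chromosome 3 cluster holds OsHsp17.9A (LOC_Os03g15960), OsHsp17.4 (LOC_Os03g16020), OsHsp18.0 (LOC_Os03g16030) and OsHsp17.7 (LOC_Os03g16040). The shoots came from wild-type Zhonghua 11 (ZH11) and from OsJAZ1-OE plants, made in the same ZH11 background to overexpress the jasmonate signalling repressor OsJAZ1. The transgene stands under OsLEA3-1, a promoter that drought induces, and the labels do not say which transgenic line gave the RNA. All plants were at the four-leaf stage and stood in barrels of soil, under normal conditions or under drought stress that took the soil down to a low water content. Each genotype gave 3 libraries from normal conditions and 2 from drought stress, 10 in all, and the third drought replicate of each genotype was not analysed here. The study set those replicates aside because they correlated poorly with the others, so the drought libraries used here were kept for their likeness and their spread may be too small.

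Small heat shock proteins are chaperones that work without ATP. They share an alpha-crystallin domain, assemble into large oligomers, and hold unfolding proteins in a state from which HSP70 and the HSP101 disaggregase can refold them. Plants sort them into classes by sequence and by place in the cell, class I being cytosolic and nuclear, and heat shock transcription factors switch most of them on under heat, oxidative stress and water loss. Some classifications of the rice family keep OsHsp16.6 and OsHsp17.9B outside class I in spite of their place in the chromosome 1 cluster. The class was not checked here, since no protein sequence was used.

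The library totals ran from 32396154 to 34027909 expected counts, and the libraries of a group correlated at 0.986 to 0.991 in log2 CPM. Levels are given in FPKM, a fragment count scaled mainly to transcript length and to library size. OsJAZ1 (LOC_Os04g55920), the overexpressed gene, lay at 110.2 to 147.5 FPKM in the 5 ZH11 libraries and at 1177 to 1388 FPKM in the 5 OsJAZ1-OE libraries. In OsJAZ1-OE its mean was 1240 FPKM under normal conditions and 1282.5 FPKM under drought. The log2 fold change was -0.06 (SE 0.07, adjusted p = 0.51 from edgeR), so the overexpression was not confined to drought. The shoot label was read against markers taken from general knowledge. The summed level of 4 leaf genes (Rubisco small subunit, Rubisco activase and 2 light-harvesting proteins) was 7177 to 11309 FPKM. Of 3 root genes, the silicon channel gene Lsi1 (LOC_Os02g51110) reached 11.6 FPKM, RCc3 (LOC_Os02g44310) stayed at or below 0.654 FPKM, and Lsi2 (LOC_Os03g01700) was at 0 in 9 of 10 libraries. The study calls them biological replicates and the labels do not say what a replicate number stands for, so the p-values measure the spread between these libraries.

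On the coordinates of the deposited files, with a genome build that the sources used here do not name, the chromosome 1 cluster spans 18.7 kb with no other locus inside it. OsHsp16.6 lies at chr1:1934117-1935048 on the plus strand and OsHsp17.9B at chr1:1941003-1941953 on the plus strand. OsHsp16.9C at chr1:1944247-1945035 and OsHsp16.9A at chr1:1948737-1949587 are on the minus strand, and OsHsp16.9B at chr1:1951928-1952771 is on the plus strand, so that OsHsp16.9A and OsHsp16.9B stand head to head. The chromosome 3 cluster spans 32.9 kb and is looser, with 5 other loci inside it. OsHsp17.9A at chr3:8805567-8806601 (plus strand) stands apart from OsHsp17.4 at chr3:8833913-8834377 (minus), OsHsp18.0 at chr3:8834823-8835802 (plus) and OsHsp17.7 at chr3:8838031-8838510 (minus). Only OsHsp17.9A had more than 1 transcript model, and its longer one took 98.1 to 99.8% of its counts.

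The counting can divide a fragment between genes that are alike in sequence or that overlap. A divided fragment leaves a fractional value once the apparent factor of each library is divided out. OsHsp16.6, OsHsp16.9C, OsHsp16.9A, OsHsp16.9B, OsHsp17.9A and OsHsp18.0 came out whole to within 0.05 fragments in every library checked. OsHsp17.9B did so in the 6 normal libraries, and its drought libraries, with larger counts, were not checked. OsHsp17.4 came out fractional in all 9 libraries where it had a fragment, and OsHsp17.7 in 9 of 10. Which genes they were divided with is not shown by these values. OsHsp17.4 shares 149 of its 465 bases with LOC_Os03g16010 on the opposite strand, and that locus was fractional in 9 of 10 libraries too. Whether the counting used strand is not stated, so the reads of this pair cannot be told apart. The values of OsHsp17.4 and OsHsp17.7 are therefore given below as less certain than those of the other 7 genes.

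Under normal conditions the 9 genes covered a wide range of levels per length. OsHsp17.9B was the most abundant, at 518 to 540.3 FPKM in the 3 ZH11 libraries and 543 to 592 FPKM in the 3 OsJAZ1-OE libraries, above 99.3% of the 24850 genes tested in ZH11. OsHsp17.9A followed at 30.3 to 55.2 FPKM over the 6 normal libraries and OsHsp17.7 at 23.3 to 28.8 FPKM. The model of OsHsp17.7 is short, with 480 bases in the deposited files against 923 in a RefSeq gene table. OsHsp18.0, with 980 bases in both, had more expected counts than OsHsp17.7 in all 6 normal libraries. In ZH11 normal replicate 1 these were 168.8 against 108.5, so the order in FPKM depends on the models. The model of OsHsp17.4 is short too (465 against 845 bases). OsHsp18.0 (5.75 to 8.46 FPKM), OsHsp16.9A (3.55 to 5.55 FPKM) and OsHsp16.9B (3.92 to 6.49 FPKM) formed a lower tier, in which neighbours in the order overlapped, except that in ZH11 OsHsp18.0 lay above OsHsp16.9A and OsHsp16.9B. OsHsp16.9C lay at 1.06 to 2.81 FPKM. OsHsp17.4 ran from 0.000613 to 6.95 FPKM and so could not be placed in this order. OsHsp16.6 was hardly detected, with 2 fragments in all over the ZH11 normal libraries and 12 over the OsJAZ1-OE normal libraries.

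**Figure D1:**
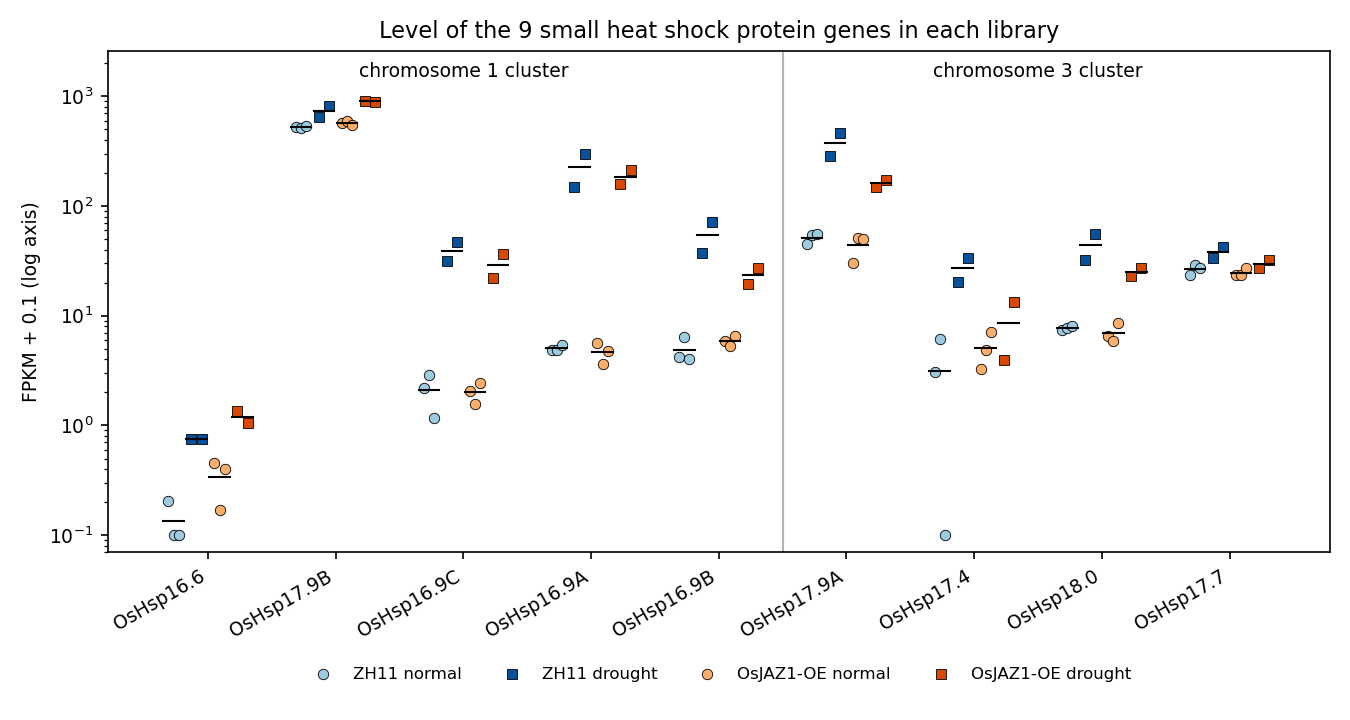
Level of each gene in each of the 10 libraries, as FPKM plus 0.1 on a log axis, with circles for normal conditions, squares for drought and a black bar for the mean of the group. OsHsp16.9A moves from 3.55 to 5.55 FPKM in the 6 normal libraries to 150.3 to 299 FPKM in the 4 drought libraries, while OsHsp17.9B is high throughout.

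Drought in ZH11 was compared with normal conditions first. Every drought library lay above every normal library for all 9 genes, a pattern that 31.1% of all tested genes show in that direction. By edgeR's quasi-likelihood test (a gene was called where its adjusted p was below 0.05 and its log2 fold change reached 1 in size), 7 of the 9 genes were called higher and 0 lower, where 5.33% of all tested genes were called higher. OsHsp16.6, among the 7, passed the filter on low counts only through drought libraries, where it is higher, so its call depends on that filter. With only the ZH11 groups fitted it was not tested, and 6 of the 8 genes tested were called. The median log2 fold change of the 9 genes was 3.07, against 0.00 over all tested genes. In whole shoots, fewer cells of a type and less RNA per cell cannot be told apart. The leaf genes moved with drought as well, with 3 of 4 lower by adjusted p in each genotype. Of all tested genes, 22.8% were lower by adjusted p in ZH11 and 20% in OsJAZ1-OE. The summed level of the leaf genes was 7668 to 7968 FPKM in ZH11 drought against 10657 to 11309 FPKM in ZH11 normal. Of the root genes, Lsi1 rose by a log2 fold change of 1.09 (SE 0.13, adjusted p = 7.8e-05 from edgeR) in ZH11 and RCc3 was at 0 in the 4 drought libraries. The part of these changes in the result was not tested.

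The OsHsp16.9 genes, 3 close relatives, were all called. OsHsp16.9A had the largest fold change of the 9 genes and was at 4.81, 4.75 and 5.26 FPKM in ZH11 normal and at 150.3 and 299 FPKM in ZH11 drought. That is a log2 fold change of 5.47 (SE 0.31, adjusted p = 3.1e-07 from edgeR), or 44.3-fold, and it took the gene from above 40.0% of the tested genes to above 97.9% of them. OsHsp16.9C went from 2.11, 2.81 and 1.06 FPKM to 31.7 and 46.6 FPKM, a log2 fold change of 4.26 (SE 0.34, adjusted p = 3.9e-06 from edgeR). OsHsp16.9B went from 4.08, 6.33 and 3.92 FPKM to 37.2 and 72.0 FPKM, a log2 fold change of 3.47 (SE 0.30, adjusted p = 6.7e-06 from edgeR). In all 3 genes both drought libraries lay far above the normal ones, and replicate 2 was the higher of the pair.

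The other genes of the same cluster are the most and the least abundant of the 9. OsHsp17.9B, already abundant, went from 521.5, 518 and 540.3 FPKM to 646 and 821 FPKM, a log2 fold change of 0.43 (SE 0.09, adjusted p = 0.0035 from edgeR) that passed the adjusted p and not the fold limit. OsHsp16.6 had 2, 0 and 0 fragments in ZH11 normal and 11 and 9 in ZH11 drought. The ratio of the pooled fragments was 16.2 (95% interval 3.94 to 143, exact binomial, counting error only) and the fitted log2 fold change 3.74 (SE 0.90, adjusted p = 0.0064 from edgeR). Even in drought it lay at 0.647 FPKM in both libraries, above only 14.5% of the tested genes.

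On chromosome 3, 3 of the 4 genes were called. OsHsp17.9A was at 44.5, 53.9 and 55.2 FPKM in ZH11 normal and at 285.5 and 459.6 FPKM in ZH11 drought, a log2 fold change of 2.81 (SE 0.23, adjusted p = 4.3e-06 from edgeR). It gained more FPKM than any other of the 9 genes. OsHsp18.0 went from 7.25, 7.66 and 8.04 FPKM to 32.0 and 55.3 FPKM, a log2 fold change of 2.48 (SE 0.23, adjusted p = 1.1e-05 from edgeR). The groups of both genes lay far apart, with the 2 drought libraries differing from each other by 1.61 and 1.73 times.

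The other 2 genes of that cluster are those with divided fragments. OsHsp17.4 was at 2.95, 6.06 and 0.000613 FPKM in ZH11 normal and at 20.3 and 33.4 FPKM in ZH11 drought. Its log2 fold change of 3.07 (SE 0.75, adjusted p = 0.0070 from edgeR) was no longer called once ZH11 drought replicate 2 was left out (2.59, edgeR adjusted p = 0.0537). OsHsp17.7, whose overexpression has been linked to drought tolerance of rice seedlings in other work, was at 23.5, 28.8 and 27.3 FPKM in ZH11 normal and at 33.8 and 41.8 FPKM in ZH11 drought. Its log2 fold change of 0.42 (SE 0.18, adjusted p = 0.082 from edgeR) did not pass the test.

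In OsJAZ1-OE the same comparison called 6 of the 9 genes higher and 0 lower, where 4.36% of all tested genes were called higher. OsHsp16.6, which passed the filter on low counts only through drought libraries, is among the 6. Drought and normal libraries did not overlap in 7 of the 9 genes, all higher under drought (29.8% of all tested genes), the exceptions being OsHsp17.4 and OsHsp17.7. The median log2 fold change was 1.86, against 0.00 over all tested genes. OsHsp16.9A again changed most, from 5.55, 3.55 and 4.63 FPKM to 159 and 212 FPKM, with a log2 fold change of 5.26 (SE 0.31, adjusted p = 5.9e-07 from edgeR). OsHsp16.9C went from 1.96, 1.45 and 2.32 FPKM to 22.2 and 36.1 FPKM, a log2 fold change of 3.87 (SE 0.34, adjusted p = 1.1e-05 from edgeR). The lower drought library of this genotype was above the lower one of ZH11 in OsHsp16.9A and below it in OsHsp16.9C, and the groups overlapped.

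OsHsp16.9B, OsHsp17.9A and OsHsp18.0 had smaller fold changes in OsJAZ1-OE than in ZH11, and none of these differences passed its test in edgeR. OsHsp16.9B went from 5.79, 5.23 and 6.49 FPKM to 19.2 and 27.4 FPKM, a log2 fold change of 1.93 (SE 0.30, adjusted p = 5.4e-04 from edgeR). OsHsp17.9A went from 30.3, 51.3 and 50.2 FPKM to 148 and 174 FPKM, a log2 fold change of 1.86 (SE 0.23, adjusted p = 1.1e-04 from edgeR). OsHsp18.0 went from 6.41, 5.75 and 8.46 FPKM to 22.7 and 27.04 FPKM, a log2 fold change of 1.77 (SE 0.23, adjusted p = 1.8e-04 from edgeR). In all 3 genes the highest drought library of OsJAZ1-OE was below the lowest drought library of ZH11. This pattern was shown by 21.9% of all tested genes in that direction.

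The remaining genes gave small or uncertain changes in this genotype. OsHsp17.9B rose from 571, 592 and 543 FPKM to 911 and 887 FPKM by a log2 fold change of 0.56 (SE 0.09, adjusted p = 8.4e-04 from edgeR), again under the fold limit. OsHsp16.6 had 12 fragments in the 3 normal libraries and 36 in the 2 drought libraries, a ratio of 4.15 (95% interval 2.11 to 8.76, exact binomial, counting error only). Its fitted log2 fold change of 2.06 (SE 0.63, adjusted p = 0.024 from edgeR) was not called without OsJAZ1-OE normal replicate 2 (1.62, adjusted p = 0.0643), without OsJAZ1-OE drought replicate 1 (1.88, adjusted p = 0.13) or without OsJAZ1-OE drought replicate 2 (2.22, adjusted p = 0.0661 from edgeR). OsHsp17.4 was at 3.17, 4.82 and 6.95 FPKM under normal conditions and at 3.84 and 13.2 FPKM under drought, and OsHsp17.7 at 23.4, 23.3 and 27.2 FPKM and at 27.1 and 32.2 FPKM. Their log2 fold changes of 0.65 (SE 0.79, adjusted p = 0.55) and 0.14 (SE 0.18, adjusted p = 0.58 from edgeR) did not pass, and the groups overlapped.

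**Figure D2:**
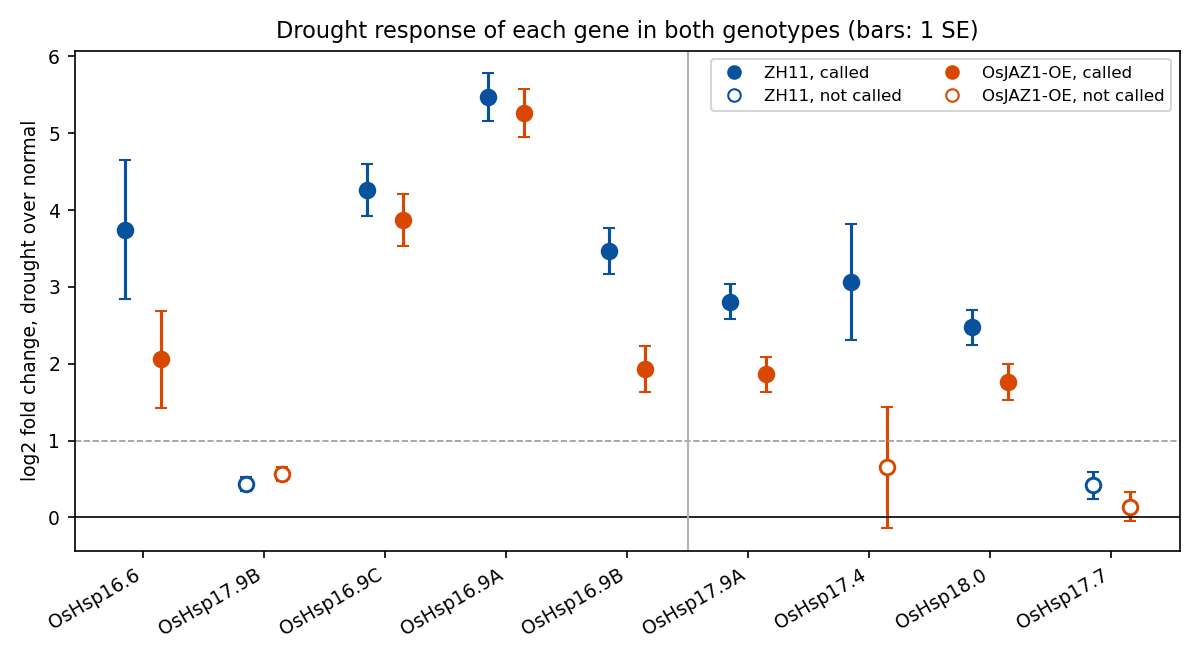
Log2 fold change of drought over normal conditions for each gene in ZH11 (blue) and OsJAZ1-OE (orange) from edgeR, with bars of 1 standard error. Filled points passed the adjusted p and the fold limit marked by the dashed line, which held for 7 genes in ZH11 and 6 in OsJAZ1-OE. The point of ZH11 is the higher one in 8 of 9 genes, and none of the differences passed its own test in edgeR.

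Under normal conditions 0 of the 9 genes were called between OsJAZ1-OE and ZH11, where 1.59% of all tested genes were called. OsHsp16.6, which rests on few fragments, was the 1 gene with an unadjusted p under 0.05 in edgeR (adjusted p = 0.25 from edgeR), and DESeq2 also called 0 of the 9. Apart from OsHsp16.6, the log2 fold changes ran from -0.26 in OsHsp17.9A (SE 0.21) to 0.64 in OsHsp17.4 (SE 0.79). In FPKM the libraries of both genotypes overlapped in 8 of 9 genes, and OsHsp17.9B was higher in OsJAZ1-OE without overlap (11.6% of all tested genes). In expected counts OsHsp17.9B overlapped as well, at 9011.9 to 9529.7 in ZH11 and 9116.4 to 9998.4 in OsJAZ1-OE. Its log2 fold change was 0.07 (SE 0.08, adjusted p = 0.73 from edgeR).

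Under drought 2 of the 9 genes were called lower in OsJAZ1-OE than in ZH11 and 0 higher, where 0.217% of all tested genes were called lower. OsHsp16.9B was at 19.2 and 27.4 FPKM in OsJAZ1-OE against 37.2 and 72.0 FPKM in ZH11, a log2 fold change of -1.28 (SE 0.30, adjusted p = 0.044 from edgeR). OsHsp17.9A was at 148 and 174 FPKM against 285.5 and 459.6 FPKM, a log2 fold change of -1.20 (SE 0.24, adjusted p = 0.022 from edgeR). Both calls rest on few libraries. That of OsHsp17.9A ended without ZH11 drought replicate 2 (-0.84, adjusted p = 0.0869), without OsJAZ1-OE drought replicate 1 (-1.04, adjusted p = 0.16) or without OsJAZ1-OE drought replicate 2 (-1.39, adjusted p = 0.0605 from edgeR). That of OsHsp16.9B held in edgeR only without ZH11 normal replicate 2 or ZH11 drought replicate 1, and over the other 8 left-out libraries its log2 fold change ran from -1.64 to -0.71 and its adjusted p from 0.0585 to 0.238, the smallest change being without ZH11 drought replicate 2. Both genes also missed the threshold when only these 2 groups were fitted (adjusted p = 0.192 and 0.0742 from edgeR) and in limma with either pseudocount (adjusted p = 0.101 to 0.112 and 0.0750 to 0.0753 from limma).

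The other genes of the chromosome 3 cluster lay lower as well without passing the test. OsHsp18.0 differed by a log2 fold change of -0.90 (SE 0.24, adjusted p = 0.073 from edgeR), and this was called once ZH11 drought replicate 1 was left out (-1.25, edgeR adjusted p = 0.0079). OsHsp17.4 differed by -1.77 (SE 0.78, adjusted p = 0.25) and OsHsp17.7 by -0.46 (SE 0.20, adjusted p = 0.24 from edgeR). In all, 5 genes were lower in OsJAZ1-OE drought without overlap (21.9% of all tested genes), namely OsHsp16.9B and the 4 genes on chromosome 3. OsHsp17.9B and OsHsp16.6 were higher without overlap in FPKM (23.8% of all tested genes). Their log2 fold changes were 0.20 (SE 0.10, adjusted p = 0.32) and 0.70 (SE 0.61, adjusted p = 0.59 from edgeR). OsHsp16.9A and OsHsp16.9C overlapped between the genotypes, with log2 fold changes of -0.34 (SE 0.27) and -0.46 (SE 0.31).

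The drought responses of the genotypes were then compared directly. The difference, OsJAZ1-OE minus ZH11, was below 0 in 8 of 9 genes, and OsHsp17.9B was the exception at 0.13 (SE 0.13). The median of the 9 genes was -0.71, against 0.01 over all tested genes. Genes read in the same libraries are not replicates, so the count of signs is not a test. The difference uses the same drought libraries as the comparison above and is not separate evidence. None of the 9 genes passed in edgeR, which called 0% of all 24850 genes at this threshold and gave 2097 at an unadjusted p under 0.05. Among the 9 genes, 2 had an unadjusted p under 0.05, OsHsp16.9B and OsHsp17.9A. OsHsp16.9B came nearest, at -1.54 (SE 0.43, unadjusted p = 0.0044, adjusted p = 0.40 from edgeR). DESeq2 called 105 of all genes and 1 of the 9, again OsHsp16.9B (-1.54, adjusted p = 0.0336 from DESeq2). The interval of these differences is wide. That of OsHsp16.9A was -0.21 with an SE of 0.47, and a p above the threshold does not show that the genotypes responded alike.

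The drought libraries of a genotype differed from each other in these genes. In ZH11, replicate 2 was above replicate 1 in the 8 genes other than OsHsp16.6, by 1.24 to 1.99 times in FPKM, where over all tested genes 47.3% were higher in replicate 2. OsHsp16.6 was level, at 0.647 FPKM in both. The ratio of each of those 8 genes lay above that of at least 88.3% of the tested genes. In OsJAZ1-OE replicate 2 was above replicate 1 in 7 of 9 genes, where 54.7% of all tested genes were. Related chaperone genes mostly showed the same order of libraries. Replicate 2 was the higher one in 10 of 12 small heat shock protein genes outside the clusters in each genotype, the median log2 ratio being 0.72 for ZH11 and 0.68 for OsJAZ1-OE. Of the 9 HSP100, HSP90 and HSP70 genes it was higher in 7 in ZH11 (median 0.75) and in 9 in OsJAZ1-OE (median 0.50), where the median of the 9 genes of the clusters was 0.69 and 0.25. Of 24 heat shock transcription factors, replicate 2 was higher in 18 in ZH11 (median 0.20) and in 14 in OsJAZ1-OE (median 0.16). The order of the drought libraries in the summed level of the 8 genes other than OsHsp17.9B was 404 and 522 FPKM in OsJAZ1-OE and 591 and 1009 FPKM in ZH11. What set the drought libraries of one genotype apart was not tested.

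**Figure D3:**
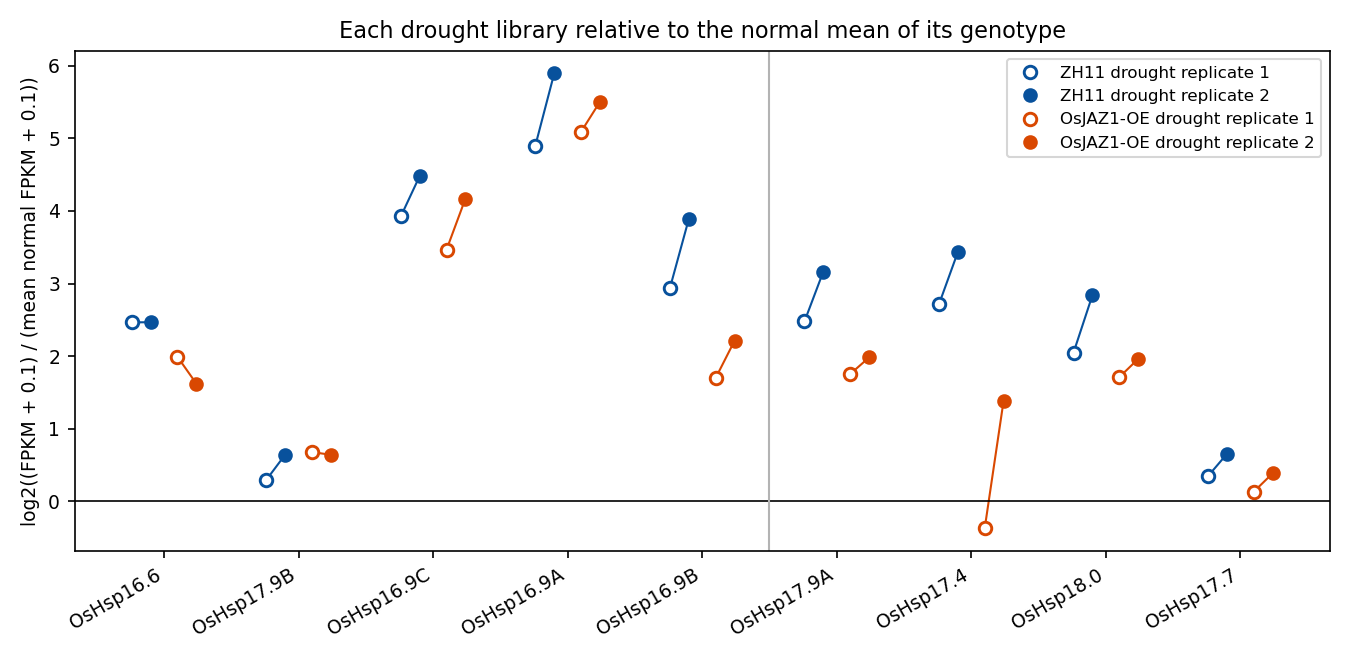
Each of the 4 drought libraries against the mean of the normal libraries of its genotype, as log2 of the ratio of FPKM plus 0.1, with open points for replicate 1 and filled points for replicate 2. Lines join the 2 libraries of a group and end higher at replicate 2 in 8 genes of ZH11, with OsHsp16.6 level, and in 7 of 9 genes of OsJAZ1-OE.

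The members of each cluster were also added up before the fit, which removes any division of fragments inside a cluster. The chromosome 3 sum is mostly OsHsp17.9A, which had 8603.8 expected counts in ZH11 drought replicate 2 against 1282.1 for OsHsp18.0, the next. Its values are therefore not separate evidence from those of OsHsp17.9A. The chromosome 3 sum rose under drought by a log2 fold change of 2.65 (SE 0.21, adjusted p = 3.4e-06 from edgeR) in ZH11 and of 1.73 (SE 0.21, adjusted p = 9.9e-05 from edgeR) in OsJAZ1-OE. It was lower in OsJAZ1-OE than in ZH11 under drought by -1.15 (SE 0.23, adjusted p = 0.018 from edgeR), a call that ended without ZH11 drought replicate 2 (-0.78, adjusted p = 0.072) or without OsJAZ1-OE drought replicate 1 (-0.98, adjusted p = 0.146 from edgeR). It also ended with only these 2 groups in the fit (-1.14, edgeR adjusted p = 0.0925) and in limma on FPKM with either pseudocount (adjusted p = 0.0569 and 0.0584 from limma). The difference of its responses was -0.92 (SE 0.30, adjusted p = 0.46 from edgeR). The chromosome 1 sum is mostly OsHsp17.9B and changed by 0.94 (SE 0.13) in ZH11 and 0.89 (SE 0.13) in OsJAZ1-OE, both under the fold limit. With OsHsp17.9B left out, a choice made after seeing the data, the sum rose by 4.74 (SE 0.28, adjusted p = 4.7e-07 from edgeR) in ZH11 and by 4.20 (SE 0.28, adjusted p = 1.4e-06 from edgeR) in OsJAZ1-OE, and the genotypes differed under drought by -0.47 (adjusted p = 0.38 from edgeR).

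The makeup of the family changed with drought. OsHsp17.9B held 82.4 to 88.1% of the summed FPKM of the 9 genes in the 6 normal libraries, 52.2 and 44.9% in ZH11 drought and 69.3 and 62.9% in OsJAZ1-OE drought. The other 8 genes together were at 76.9 to 110.3 FPKM in the normal libraries. Within the OsHsp16.9 genes, OsHsp16.9A held 34.2 to 51.3% of their summed FPKM under normal conditions, 68.6 and 71.6% in ZH11 drought and 79.4 and 77.0% in OsJAZ1-OE drought. The ratio of OsHsp16.9B to OsHsp16.9A, which stand head to head, was 0.746 to 1.47 in the normal libraries, 0.248 and 0.240 in ZH11 drought and 0.120 and 0.129 in OsJAZ1-OE drought. The ratio is taken within a library, so the depth of the library and its factor drop out of it, and the 2 libraries of each drought group lay close together. The drought groups did not overlap in this ratio, but with 2 libraries against 2 the smallest p of an exact two-sided permutation test is 0.333. The ratio of OsHsp17.9A to OsHsp18.0 on chromosome 3 stayed between 4.72 and 8.93 in all 10 libraries, with 8.92 and 8.31 in ZH11 drought and 6.53 and 6.42 in OsJAZ1-OE drought.

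**Figure D4:**
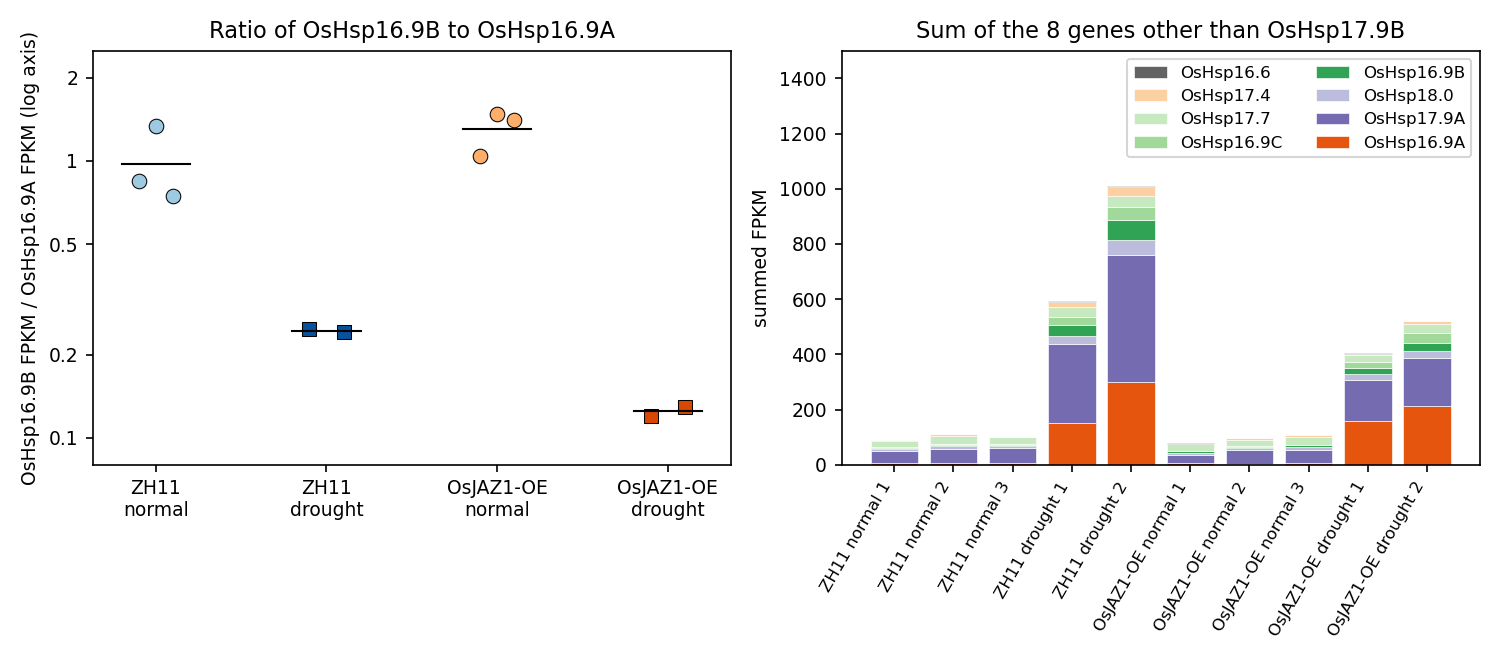
Left, the FPKM ratio of OsHsp16.9B to OsHsp16.9A in each library on a log axis, with a bar for the mean of the group; it falls from 0.746 to 1.47 in the normal libraries to 0.240 and 0.248 in ZH11 drought and 0.120 and 0.129 in OsJAZ1-OE drought. Right, the summed FPKM of the 8 genes other than OsHsp17.9B in each library, stacked by gene, with OsHsp17.9A and OsHsp16.9A making up most of the drought libraries.

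The loci around the clusters were read to see how far the response extended. On chromosome 3, none of the 8 tested neighbours rose by the fold limit. LOC_Os03g16010, which overlaps OsHsp17.4, changed by a log2 fold change of -0.25 (SE 0.09) in ZH11 and -0.40 (SE 0.09) in OsJAZ1-OE. The loci LOC_Os03g15970, LOC_Os03g15980 and LOC_Os03g15990, which lie between OsHsp17.9A and the rest, were at or below 0.237 FPKM in every library. On chromosome 1 the neighbour of OsHsp16.6, LOC_Os01g04330, rose under drought by 2.91 (SE 0.30, adjusted p = 2.5e-05 from edgeR) in ZH11 and 2.30 (SE 0.30, adjusted p = 1.8e-04 from edgeR) in OsJAZ1-OE. Its drought libraries were at 212 and 88.0 FPKM in ZH11 and 115 and 80.0 FPKM in OsJAZ1-OE, so that replicate 1 was the higher one in both genotypes, unlike in the OsHsp16.9 genes. The neighbour of OsHsp16.9B, LOC_Os01g04390, fell by 2.23 on the log2 scale (SE 0.28, adjusted p = 9.0e-05 from edgeR) in ZH11 and by 1.05 (SE 0.24, adjusted p = 0.0057 from edgeR) in OsJAZ1-OE.

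**Figure D5:**
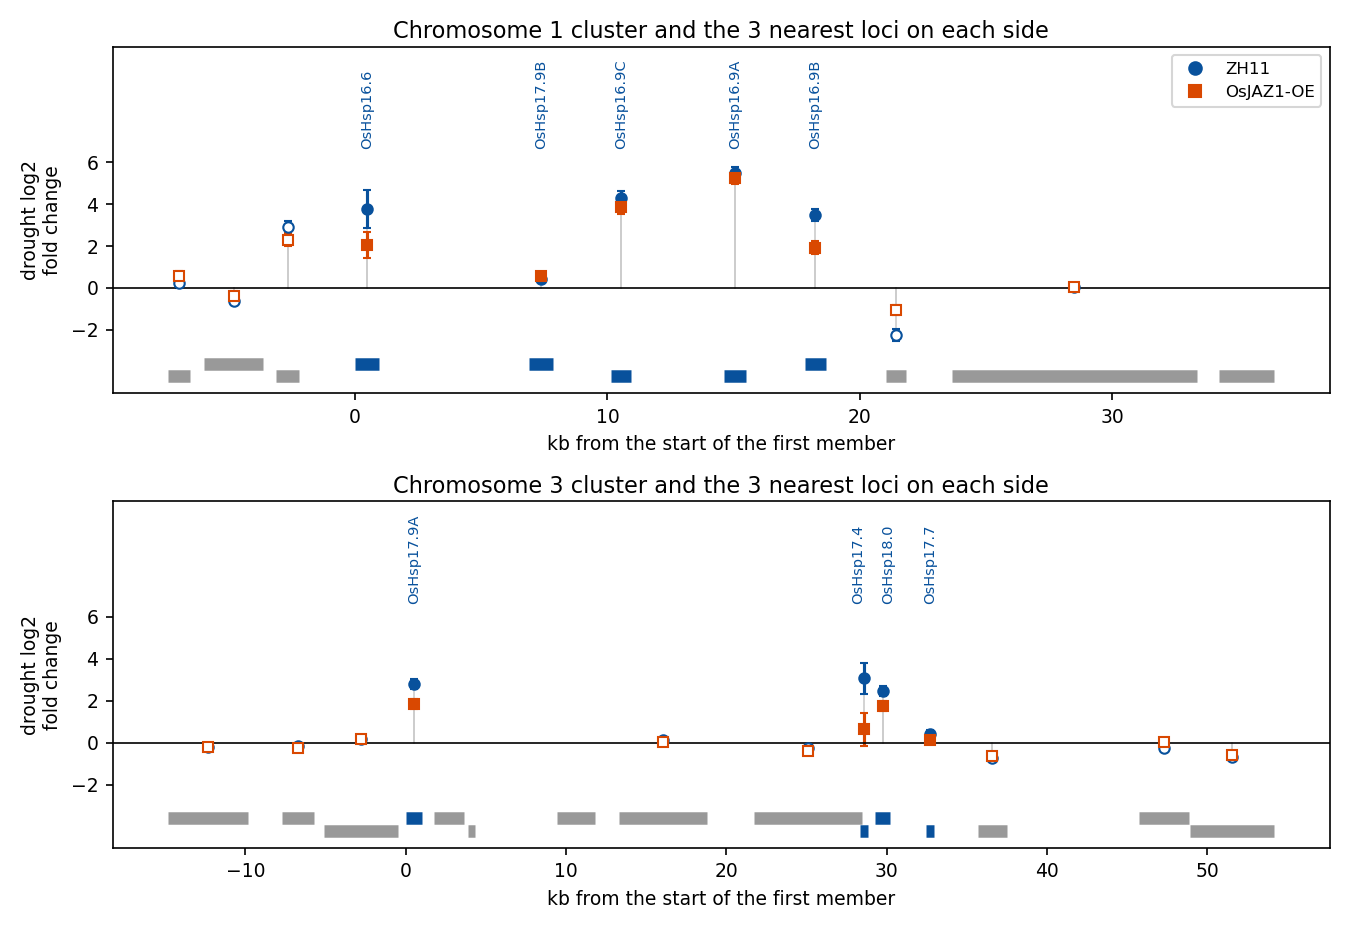
Drought log2 fold change (edgeR, bars of 1 standard error) of the loci of each cluster, drawn at their distance in kb from the start of the first member, in ZH11 (circles) and OsJAZ1-OE (squares). Filled points and blue bars mark the 9 genes, open points and grey bars the loci inside the clusters and the 3 nearest on each side, the upper row of bars being the plus strand; loci without points were not tested. OsHsp16.9A is the highest point on chromosome 1 at 5.47, and the tested neighbours on chromosome 3 lie between -0.74 and 0.20.

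Other small heat shock protein genes, outside the 2 clusters, were read for comparison. Of 12, 8 passed the adjusted p as higher and 3 as lower under drought in each genotype. Of all tested genes, 21.6% passed as higher and 22.8% as lower in ZH11, and 19.1% and 20% in OsJAZ1-OE. The median log2 fold change of the list was 1.93 in ZH11 and 1.06 in OsJAZ1-OE. The endoplasmic reticulum gene OsHsp23.2 (LOC_Os04g36750) gave the largest change in ZH11, at 0.329, 0.466 and 0.212 FPKM under normal conditions and 8.05 and 18.9 FPKM under drought, with a log2 fold change of 5.28 (SE 0.56) there and of 4.90 (SE 0.55) in OsJAZ1-OE. The plastid gene OsHsp26.7 (LOC_Os03g14180) rose by 3.14 (SE 0.34) and 3.94 (SE 0.36). The class II gene LOC_Os01g08860, the most abundant of the list, rose by 2.20 (SE 0.32) and 1.01 (SE 0.32), and OsHsp18.6 (LOC_Os02g54140) by 2.11 (SE 0.25) and 1.39 (SE 0.25). LOC_Os05g42120 fell by 1.48 on the log2 scale (SE 0.16) in ZH11. None of the 12 passed the adjusted p of edgeR between the genotypes under drought, where 1.13% of all tested genes passed as lower and 3 of the 12 had an unadjusted p under 0.05, and their median difference there was -0.25, against -0.46 for the 9 genes.

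Chaperones of the HSP100, HSP90 and HSP70 families were read in the same way. Of 9 HSP100, HSP90 and HSP70 genes tested, 7 passed the adjusted p as higher in ZH11 and 3 in OsJAZ1-OE, with 0 lower, and the median log2 fold change was 1.06 and 0.29. The shares of all tested genes were 21.6% higher and 22.8% lower in ZH11, and 19.1% and 20% in OsJAZ1-OE. HSP101 (LOC_Os05g44340), the disaggregase, was at 1.95 to 2.26 FPKM in ZH11 normal and at 8.98 and 20.4 FPKM in ZH11 drought, with a log2 fold change of 2.74 (SE 0.29) there and of 1.91 (SE 0.29) in OsJAZ1-OE. The cytosolic HSP90 gene LOC_Os04g01740 rose by 4.14 (SE 0.57, adjusted p = 1.9e-04 from edgeR) in ZH11 and had a log2 fold change of 0.98 (SE 0.54, adjusted p = 0.18 from edgeR) in OsJAZ1-OE, where it did not pass. The HSP70 gene LOC_Os05g38530 rose by 1.81 (SE 0.21) and 1.06 (SE 0.21). The difference of the responses was below 0 in 9 of 9 of these genes, with a median of -0.75. That of the 9 small heat shock protein genes was -0.71, from the same libraries, and that of all tested genes 0.01. For this difference 0 of the 9 chaperone genes passed the adjusted p of edgeR and 3 had an unadjusted p under 0.05. Between the genotypes under drought, 8 of the 9 chaperone genes were below 0. Their median was -0.73, against -0.46 for the 9 small heat shock protein genes and 0.01 for all tested genes. None passed the adjusted p of edgeR there. An unadjusted p under 0.05 was seen in 6 chaperone genes and 5 of the small heat shock protein genes, all lower, and in 4651 of all 24850 genes in either direction.

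Heat shock transcription factors bind the promoters of such genes. Of 23 tested, 13 passed the adjusted p as higher and 3 as lower in ZH11, and 9 and 3 in OsJAZ1-OE, and the median log2 fold change was 0.51 and 0.22. The shares of all tested genes were 21.6% higher and 22.8% lower in ZH11, and 19.1% and 20% in OsJAZ1-OE. OsHsfC2a (LOC_Os02g13800) changed by 4.25 (SE 0.31) in ZH11 and 4.58 (SE 0.33) in OsJAZ1-OE and OsHsfC2b (LOC_Os06g35960) by 3.81 (SE 0.12) and 3.53 (SE 0.12), and the differences between the genotypes, 0.33 (SE 0.48) and -0.28 (SE 0.17), did not pass. OsHsfA2a (LOC_Os03g53340), of the A2 group of activators, changed by 2.00 (SE 0.24) and 1.58 (SE 0.26) and stayed at or below 2.87 FPKM. OsHsfB4c (LOC_Os09g28200) was at or below 1.93 FPKM and had log2 fold changes of -3.12 (SE 1.09, adjusted p = 0.038) in ZH11 and -1.21 (SE 0.82, adjusted p = 0.27 from edgeR) in OsJAZ1-OE, of which the second did not pass. Between the genotypes under drought 2 factors passed the adjusted p of edgeR, where 1.13% of all tested genes passed as lower. Both factors were lower in OsJAZ1-OE and under the fold limit. These were OsHsfA2c (LOC_Os10g28340), at 29.8 and 41.6 FPKM in ZH11 drought and at most 23.4 FPKM in OsJAZ1-OE drought (-0.86, SE 0.16, adjusted p = 0.013 from edgeR), and LOC_Os04g48030 (-0.62, SE 0.13, adjusted p = 0.026 from edgeR), named here after their values were seen.

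The pattern of the 9 genes over the libraries was compared with that of other genes by the correlation of log2(FPKM + 0.1) with their mean, which describes these 10 libraries, shares the drought contrast among all points and has no test. Each member was also correlated with the mean of the other 8, and this ran from 0.643 in OsHsp17.4 and 0.803 in OsHsp17.7 to 0.979 in OsHsp16.9B and 0.987 in OsHsp16.9C. Among 20809 other genes with a mean of at least 1 FPKM, LOC_Os02g13840 (0.996), LOC_Os02g45040 (0.995), LOC_Os07g48160 (0.994), LOC_Os03g64230 (0.993), LOC_Os04g52340 (0.992), LOC_Os02g48170 (0.991), LOC_Os02g36490 (0.991), LOC_Os04g55200 (0.990), LOC_Os03g10080 (0.989) and LOC_Os01g57420 (0.989) were the most alike, and no names for them were taken from the sources used here. None of these 10 is on the lists of small heat shock proteins, chaperones or heat shock factors. Of those lists, HSP101 was nearest at rank 53 (0.980), followed by OsHsp18.6 at rank 73 (0.977) and OsHsp23.2 at rank 158 (0.972).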

How the data were processed

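RNA was taken by the authors from rice shoots, and libraries were sequenced as paired reads. The deposited tables give, per transcript, expected counts (estimated fragments) and FPKM made by the authors, who used the BMKCloud platform. TopHat2, Picard, SAMtools 0.1.18 and GATK are named in the submitters' processing notes, with no role for each, and the genome build, annotation version and counting program are not given in the sources used here. No sample column was left unused (0 others).

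Transcript values were summed per gene over 55689 gene IDs. The expected counts as deposited appear to carry 1 factor per library of 0.884 to 1.19, since 89.0 to 90.2% of gene sums of up to 1000 were whole multiples of a step to within 0.01 fragments, and the totals with the factor divided out were 28610388 to 37795945. Counts were rounded, filtered by filterByExpr (24850 genes, 9 of the 9 among them) and normalized by TMM. All 10 libraries entered a single quasi-likelihood fit in edgeR 4.0.16 (under R 4.3.3), which gave each group its own mean, and p-values were adjusted by Benjamini-Hochberg over all genes. Calls needed an adjusted p below 0.05 with a log2 fold change of 1 or more in size, and for the difference of the responses at the adjusted p alone. The spread between libraries exceeded counting error, with a mean chi-square per gene of 6.40 to 20.4 between replicates. In counts simulated for drought in ZH11 (24850 genes, 200 changed), recovery was scored by the adjusted p alone, without the fold limit. The model recovered 70% of genes changed by a log2 fold of 1 (median estimate 0.998) and 100% of those changed by 2. It also passed 6 unchanged genes. The simulation gave every gene the same spread and changed no gene near the floor, so it does not give the power for the 9 genes. Descriptions were made with pandas 2.3.3, scipy 1.17.1 and matplotlib 3.10.9 (Python 3.11.15).

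The alternatives were DESeq2 1.42.0, RLE size factors, no filter, a filter of 50 counts, a fit of the compared groups by themselves, the replicate number as a blocking term, limma-trend 3.58.1 on log2 of FPKM plus 0.1 or 1 (at least 0.5 FPKM in 2 libraries), the factor divided out, each library left out, and, added after seeing the data, the chromosome 1 sum without OsHsp17.9B. Named were all 9 genes, OsJAZ1, per list the 4 most abundant and the 4 most changed genes (the text gives part of them), the loci around the clusters and the 10 most alike genes. The members and lists were chosen with earlier results of these data known. Names come from general knowledge, and the 29 of them were looked up in a RefSeq gene table (ASM3414082v1), where each was found on the matching chromosome and in matching order, OsHsp18.0 and OsHsfA2d under the other symbols HSP18.1 and HSF08.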

Additional observations from a re-analysis of the deposited data

How the results depend on the processing

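No called value changed its direction under any alternative. Leaving out single libraries moved the number of genes called lower in OsJAZ1-OE under drought from 2 to between 0 and 3, the chromosome 3 sum in that comparison from -1.15 to between -1.44 and -0.78, and the chromosome 1 sum in ZH11 drought from 0.94 to between 0.63 and 1.19, past the fold limit only without ZH11 drought replicate 1. With only the groups compared, or by limma on log2(FPKM + 0.1) or log2(FPKM + 1), 0 of the 9 genes were called between the genotypes under drought, and the chromosome 3 sum stood at -1.14 (adjusted p = 0.0925 from edgeR), -1.07 (adjusted p = 0.0569 from limma) and -1.07 (adjusted p = 0.0584 from limma). For the difference of the responses only the fit of all 4 groups is possible, and DESeq2 called 1 of the 9 genes, OsHsp16.9B, where edgeR called 0. Without OsHsp17.9B the chromosome 1 sum rose by 4.74 in ZH11 and 4.20 in OsJAZ1-OE, past the fold limit, since that gene holds most of the sum. OsHsp16.6 dropped under the fold limit with a pseudocount of 1 (0.67 for ZH11, 0.77 for OsJAZ1-OE) and lost its call in OsJAZ1-OE in DESeq2 (adjusted p = 0.0726). Where a drought library was left out, the lone library of its group was taken to vary like the other groups. The cause of the other changes was not tested.

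Over all genes, DESeq2 called 105 for the difference of the responses, no filter 45, limma 5 and 11, and edgeR without ZH11 drought replicate 2 called 123, against 0. With a pseudocount of 1 limma called 1999 (against 3570) in ZH11 drought, 1569 (against 2729) in OsJAZ1-OE drought, and 204 (against 394) and 230 (against 430) between the genotypes. The filter of 50 counts called 261 under normal conditions, and the groups compared alone 278 under drought.

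The labels name no batch shared by libraries of the same replicate number. Correlations of same-numbered deviations ran from -0.101 to 0.242, with 0.152 between the drought groups. Differently numbered libraries were not correlated for reference, so these values cannot settle whether the number pairs the samples. With the replicate number as a block, 7, 6, 0, 2 and 0 of the 9 genes were called in the comparisons in the order of the text, as without it, and 3540 (against 3570) of all genes in ZH11 drought, 2751 in OsJAZ1-OE drought, 408 and 436 between the genotypes and 0 for the difference. Groups of 2 drought libraries limit all values given here, and at the depth of these libraries OsHsp16.6 has too few fragments for a stable fold.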
